A study of Mus musculus with 9 samples.

Results

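Hepatokines are proteins that the liver releases into the blood and that act on other tissues. The 9 hepatokine genes described here (Lect2, Gdf15, Fgf21, Enho, Angptl4, Angptl6, Ahsg, Fetub and Rbp4) were chosen by name: every array probe whose gene name in the scanner files is that of a member was taken. This gave 11 probes, 2 each for Fgf21 and Angptl6 and 1 for each other gene, out of 41174 probes on the array, of which 26473 were detected and gave 17629 features, mostly genes. All 11 probes were well above background on all 9 arrays, with no outlier flag and no saturated spot.

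The study asked about Astragalus polysaccharides (APS) in nonalcoholic fatty liver. Its 24 male C57bl/6J mice ate either chow, a high-fat diet (HFD) with 60% of energy from fat, or the same high-fat diet with APS mixed in at 40 g per kg of food (HFD+APS), each for 12 weeks, and were 16 weeks old at the end. Liver RNA from 3 samples per group, chosen by the submitters after looking at liver histology and triglyceride, was hybridised to 9 one-colour arrays. The labels name no engineered allele, both high-fat groups share the fat content of their food, and APS was not given with chow. The labels give no animal numbers, so the p-values measure the spread between these liver samples. Hepatocyte markers were strong in every sample: 9 of 9 were well above background on all arrays, and their summed signal ranged from 1640 to 2200 times the array's 75th percentile. Of these markers, Tat was called in HFD minus chow (-0.73 ± 0.18, adjusted p = 0.0417) and Cps1 in HFD+APS minus HFD (1.11 ± 0.19, adjusted p = 0.0346).

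Signals are given as relative log2 signal, the log2 of the processed spot signal minus the 75th percentile of that array, so that a value of 5 is far above a typical probe. A gene was called where limma's two-sided adjusted p over all 17629 features was under 0.05, and ± beside a difference is its standard error (n = 3 livers a group). Probes differ in how well they hybridise, so levels are compared between groups and not between genes. The 3 chow arrays lay on a slide of their own, the 3 HFD arrays shared a slide with HFD+APS replicate 1, and HFD+APS replicates 2 and 3 lay on the third. For both comparisons with chow, diet and slide therefore cannot be told apart. Between 61.5% and 68.4% of spots were well above background on the chow slide, 50.4% to 54.1% on the HFD slide, and 63.5% and 64.5% on the third.

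Among hepatokines, some signal hunger, fuel shift or stress. FGF21 acts through FGF receptors with beta-Klotho and is transcribed under PPAR alpha and the stress factor ATF4, GDF15 is a TGF beta family stress signal sensed in the hindbrain by GFRAL with RET, and adropin, the product of Enho, is a small peptide linked to fuel use. Others act in plasma: ANGPTL4 inhibits lipoprotein lipase, the fetuins (Ahsg and Fetub) are abundant cystatin-type proteins, and RBP4 carries retinol together with transthyretin. LECT2 is a chemotactic protein made by hepatocytes that binds the receptors MET and TIE1.

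The 60-base probes that the main results rest on are shown so that the transcript region each value reads can be seen, 5′ to 3′ and with positions in the mm9 build of the array annotation. For Fgf21 and Angptl6 both probes are given, because they read separate stretches of the transcript. Fgf21 probe A_51_P315925 (chr7:52869680-52870294, minus strand) covers 615 bases of genome and thus spans an intron, as does Angptl6 probe A_52_P319199 (chr9:20678511-20679663, minus strand, 1153 bases). Fgf21 probe A_52_P235347 (chr7:52869305-52869364) has 20% G and C against 51.7% in the other Fgf21 probe. Angptl6 probe A_51_P259571 lies at chr9:20678326-20678385, Gdf15 probe A_52_P532982 at chr8:73153471-73153530, Lect2 probe A_51_P249909 at chr13:56643950-56644009, Angptl4 probe A_51_P338443 at chr17:33911880-33911939 and Enho probe A_51_P497090 at chr4:41585257-41585316, all on the minus strand. For Lect2, Angptl4, Enho and the second Fgf21 probe only the last 30 bases are printed. Capitals mark the polyadenylation hexamer AATAAA.
Fgf21 A_51_P315925: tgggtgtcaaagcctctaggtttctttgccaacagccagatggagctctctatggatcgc
Fgf21 A_52_P235347: atttatcttatttatttattttagtttttt
Angptl6 A_51_P259571: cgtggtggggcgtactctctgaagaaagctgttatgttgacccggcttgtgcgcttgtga
Angptl6 A_52_P319199: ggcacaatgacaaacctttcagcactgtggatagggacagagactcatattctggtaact
Gdf15 A_52_P532982: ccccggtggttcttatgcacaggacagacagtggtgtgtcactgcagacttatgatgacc
Lect2 A_51_P249909: agaaacataaatctgtgtaaacactcacaa
Angptl4 A_51_P338443: aggtgctaactgtggttcccaggcacagct
Enho A_51_P497090: cctcccactgtttgttgggtAATAAAtgga

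The bases just upstream of the start sites of Lect2, Gdf15 and Fgf21 are shown. These 3 genes had the largest log2 differences between chow and HFD, in either direction. Of the 3, only Lect2 was called. The sequences come from RefSeq on GRCm38.p6, which held 10 start sites for 7 of the 9 members. Angptl4 and Enho had no entry. Each run is the 250 bases before a start site, 5′ to 3′ on the gene's strand, at chr13:56548539-56548788 for Lect2, chr8:70632457-70632706 for Gdf15 and chr7:45615491-45615740 for Fgf21, all on the minus strand. Lect2 and Gdf15 also have transcripts that start slightly further upstream, inside the window. Capitals mark exact matches, on either strand, to 6 short motifs: TATAAA (core of the TATA box), TTGCATCA (amino acid response element), CACGTG (E-box), AGGTCA (nuclear receptor site core), ATCAAAG (TCF/LEF) and GTTAAT (HNF1 site core, read as ATTAAC on the other strand).
Lect2: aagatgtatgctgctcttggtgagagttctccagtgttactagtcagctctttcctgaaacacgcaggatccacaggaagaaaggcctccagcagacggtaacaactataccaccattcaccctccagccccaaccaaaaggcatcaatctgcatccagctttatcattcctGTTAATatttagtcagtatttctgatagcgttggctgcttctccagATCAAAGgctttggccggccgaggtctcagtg
Gdf15: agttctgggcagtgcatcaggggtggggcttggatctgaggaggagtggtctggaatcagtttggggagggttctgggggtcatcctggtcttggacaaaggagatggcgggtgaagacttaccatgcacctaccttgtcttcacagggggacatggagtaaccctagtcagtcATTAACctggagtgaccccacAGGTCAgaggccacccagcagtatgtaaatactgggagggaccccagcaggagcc
Fgf21: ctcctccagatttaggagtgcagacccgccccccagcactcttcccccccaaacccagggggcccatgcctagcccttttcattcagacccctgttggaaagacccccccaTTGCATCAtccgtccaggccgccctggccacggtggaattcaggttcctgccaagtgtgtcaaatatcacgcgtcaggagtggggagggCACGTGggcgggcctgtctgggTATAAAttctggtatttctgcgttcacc

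The Lect2 and Gdf15 windows both held GTTAAT on one strand or the other, and the other motifs found were each in 1 of the 3 windows. Upstream of Lect2, ATCAAAG began 32 bases and GTTAAT 78 bases before the start site, and upstream of Gdf15, AGGTCA began at 55 and ATTAAC at 76 bases. The Fgf21 window held TATAAA at 28, CACGTG at 50 and TTGCATCA at 139 bases. A second Gdf15 start site, whose window is not printed here, had CACGTG at 83 bases. Over 32851 windows of the same length, 12.4% held TATAAA, 0.791% TTGCATCA, 6.02% CACGTG, 14.0% AGGTCA, 3.21% ATCAAAG and 6.43% GTTAAT. TTGCATCA was the rarest of the 6, and Fgf21 was the only member with it among the 10 windows. A match of letters is a description of the window and not of binding.

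Under the high-fat diet, Lect2 rose 2.09-fold and Angptl4 fell 1.72-fold against chow, and no other hepatokine was called. These 2 of 9 members (22.2%) stand beside 10.9% of all 17629 features called in HFD against chow, 4.55% higher and 6.38% lower. The groups did not overlap for 5 of 9 members, against 38.9% of all features: Lect2, Gdf15 and Angptl6 were higher (16.6% of features) and Angptl4 and Fgf21 lower (22.3%). An unadjusted limma p under 0.05 was reached by 4 members, against 31.4% of features. With APS added to the high-fat diet, 0 of 9 members were called against HFD, where 1.5% of features were called, 0.476% higher and 1.03% lower. In that comparison 4 members had an unadjusted limma p under 0.05 and non-overlapping groups: Lect2 and Gdf15 lower, Fetub and Enho higher. The backgrounds are 17.9% of features for the unadjusted p and 24.5% for non-overlap, 12.6% higher and 11.8% lower.

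**Figure D1:**
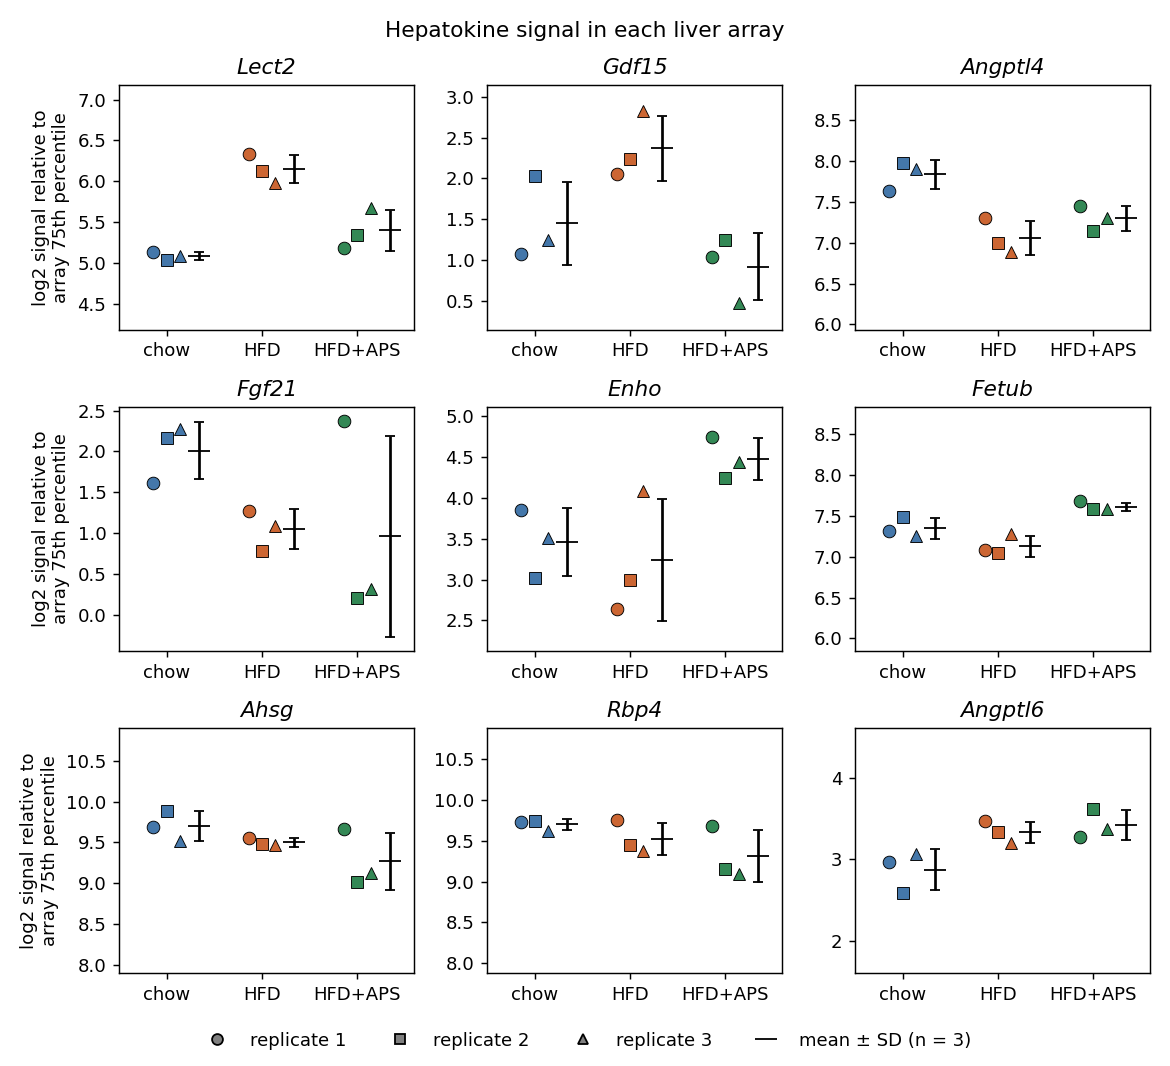
Relative log2 signal of the 9 hepatokines on each of the 9 liver arrays by diet group; symbols are replicates, and the line and whiskers beside them are the mean and SD (n = 3). Each panel spans the same number of log2 units. Lect2 lies between 5.98 and 6.33 in the HFD livers, above all others, and Fgf21 in HFD+APS replicate 1 (2.37) lies far from the other two of its group.

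Lect2 showed the clearest difference between groups. Its relative log2 signal was 5.13, 5.03 and 5.09 in the chow livers, 6.33, 6.13 and 5.98 in the HFD livers, and 5.18, 5.34 and 5.67 in the HFD+APS livers. No group overlapped another: chow was lowest and tight, HFD+APS lay just above it, and HFD was highest. As processed signal, the means were 7830 ± 845 in chow, 18200 ± 1530 in HFD and 10500 ± 2000 in HFD+APS (SD, n = 3). HFD exceeded chow by 1.06 ± 0.15 (adjusted p = 0.00943, rank 142 of all features), and all 21 alternative settings called it, with values from 0.97 to 1.15.

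HFD+APS was lower than HFD in Lect2 by -0.75 ± 0.15, a 1.68-fold difference whose adjusted p of 0.0531 missed the threshold (95% interval -1.09 to -0.41). Of 23 alternatives, 5 called it, with adjusted p from 0.0238 to 0.334 over all of them. Quantile normalisation gave -0.77 (adjusted p = 0.039) and the authors' deposited table gave -0.76 (adjusted p = 0.0414). Within the slide that both groups share, HFD+APS replicate 1 lay -0.97 from the HFD mean. HFD+APS against chow gave 0.31 ± 0.15 (adjusted p = 0.229, interval -0.03 to 0.65), so neighbouring chow and HFD+APS were not separated by the test although their values did not overlap. The comparisons share groups, and their values are set side by side without a test of one against another.

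Receptors of LECT2 were measured in the same livers. Met, a receptor tyrosine kinase, rose by 0.35 ± 0.09 in HFD against chow (adjusted p = 0.0483) and by 0.43 ± 0.09 in HFD+APS against chow (adjusted p = 0.0486), and differed by 0.08 ± 0.09 between HFD+APS and HFD (adjusted p = 0.708). Tie1, an endothelial receptor, gave 0.43 ± 0.14 (adjusted p = 0.0889) and 0.49 ± 0.14 (adjusted p = 0.0907) in HFD and HFD+APS against chow. Endothelial cell markers (7 of 7 measured) summed to 29.9 to 47.1 in chow, 55.7 to 66.9 in HFD and 60.8 to 70.5 in HFD+APS. Among them, Clec4g (0.80 ± 0.20, adjusted p = 0.0394) and Oit3 (0.92 ± 0.24, adjusted p = 0.0461) rose in HFD against chow. Pecam1 (0.12), Cdh5 (0.54), Stab2 (0.28), Kdr (0.02) and Eng (0.23) were not called there, and the list median was 0.28. The part of endothelial cells in the Tie1 values was not tested.

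Gdf15 was highest in HFD and lowest in HFD+APS, and passed the threshold in no comparison. Its relative log2 signal was 1.07, 2.03 and 1.25 in chow, 2.05, 2.24 and 2.82 in HFD, and 1.04, 1.25 and 0.47 in HFD+APS. HFD and chow were barely apart, since chow replicate 2 (2.03) nearly reached HFD replicate 1 (2.05), while HFD and HFD+APS were well separated and chow overlapped HFD+APS. HFD minus chow was 0.92 ± 0.32 (adjusted p = 0.0961, 95% interval 0.19 to 1.65), and 0.69 without HFD replicate 3.

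For HFD+APS minus HFD, Gdf15 differed by -1.45 ± 0.32, a 2.73-fold lower signal (adjusted p = 0.0677, interval -2.18 to -0.72). The direction held in all 23 alternatives (-1.64 to -1.22), and 2 of them called it, normexp background correction (adjusted p = 0.0458) and array weights (adjusted p = 0.0111). HFD+APS replicate 1 lay -1.33 from HFD on their shared slide. HFD+APS minus chow was -0.53 ± 0.32 (adjusted p = 0.338). The GDF15 receptor genes Gfral and Ret were not analysed here.

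Cells other than hepatocytes also differed between these livers, and the RNA is from whole tissue, so more cells of a type and more RNA per cell cannot be told apart. The summed signal of 6 of 7 monocyte-derived macrophage markers was 16.4 to 16.5 times the 75th percentile in chow, 30.0 to 76.2 in HFD and 16.1 to 27.8 in HFD+APS. Of those 6 genes, Ly6c2 (1.89 ± 0.26, adjusted p = 0.00943) and Trem2 (2.33 ± 0.50, adjusted p = 0.0278) rose in HFD against chow. In that comparison Ccr2 (0.86), Itgax (0.78) and Spp1 (1.38) were higher without being called, and Cd9 was lower (-0.71 ± 0.26, adjusted p = 0.113). Between HFD+APS and HFD, 0 of the 6 were called. The highest sum belonged to HFD replicate 3, which also had the highest Gdf15. Spp1, a secreted phosphoprotein in both the macrophage and the cholangiocyte list, was 45.1 times the 75th percentile in that liver, against 4.52 to 7.13 in the other 8. Without Spp1 the macrophage markers summed to 11.7 to 11.9 in chow, 24.3 to 31.1 in HFD and 11.5 to 22.4 in HFD+APS, and the cholangiocyte markers to 0.756 to 2.02 over the 9 livers. In that liver the 4 of 6 measured neutrophil markers summed to 49.7, against 1.42 to 8.80 in the other 8. Their part in the Lect2 and Gdf15 differences was not tested. Without HFD replicate 3, Lect2 was 1.15 higher in HFD than in chow (adjusted p = 0.0203).

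Kupffer cell markers (7 of 7 measured) summed to 34.4 to 49.6 in chow, 55.5 to 87.4 in HFD and 43.0 to 93.2 in HFD+APS, with 0 of 7 called in each comparison. The adipocyte markers Adipoq, Plin1, Lep and Retn were not detected, and the other 3 (Cfd, Fabp4 and Cidec, the last of which fatty hepatocytes also express) summed to 9.26 to 16.2 in chow, 23.7 to 74.4 in HFD and 5.73 to 19.3 in HFD+APS. In each comparison 0 of these 3 were called. Of 7 pancreatic acinar markers, 2 were detected, with sums of 0.585 to 1.5 on all arrays, and Cel was lower in HFD+APS than in chow (-0.66 ± 0.13, adjusted p = 0.0399). Stellate cell markers (7 of 7 measured) summed to 7.65 to 13 in chow, 14.1 to 19.4 in HFD and 12.1 to 14.3 in HFD+APS. Among them, the collagen genes Col1a1 (2.08 ± 0.45, adjusted p = 0.0294) and Col3a1 (1.79 ± 0.30, adjusted p = 0.0151) rose in HFD against chow. Acta2 (0.26), Des (0.43), Pdgfrb (0.29), Lrat (0.23) and Reln (0.39) were not called there, and the list median was 0.39. Of 6 measured lymphocyte markers, Cd4 was lower in HFD than in chow (-0.72 ± 0.18, adjusted p = 0.0404), and 0 of 5 measured cholangiocyte markers were called in any comparison. The part of these cells in the hepatokine differences was not tested.

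Fgf21 was lower in all 3 HFD livers than in all 3 chow livers, without being called. The brighter probe read 1.61, 2.16 and 2.27 in chow, 1.27, 0.78 and 1.09 in HFD, and 2.37, 0.20 and 0.31 in HFD+APS. HFD+APS thus held both the highest and the lowest values of the series: replicate 1 was above every chow liver, and replicates 2 and 3 were below every HFD liver. The intron-spanning probe gave the same picture, with 0.10, 0.67 and 0.74 in chow, -0.28, -0.46 and -0.41 in HFD, and 1.21, -1.10 and -0.92 in HFD+APS.

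HFD minus chow was -0.97 ± 0.53 for the brighter Fgf21 probe (adjusted p = 0.250, 95% interval -2.18 to 0.25) and -0.88 ± 0.54 for the other (adjusted p = 0.301 over all detected probes). The spread of the HFD+APS group (SD 1.23, against 0.35 in chow and 0.25 in HFD) enters this standard error, because all groups share a fit. Without HFD+APS replicate 1, the same difference of -0.97 was called (adjusted p = 0.0252), and so it was in a fit of the chow and HFD arrays alone (adjusted p = 0.0457). HFD+APS minus chow was -1.05 ± 0.53 (adjusted p = 0.258) with all livers and -1.76 without HFD+APS replicate 1 (adjusted p = 0.00672).

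Between HFD+APS and HFD, Fgf21 had no settled direction: -0.09 ± 0.53 overall (adjusted p = 0.952), -0.79 without HFD+APS replicate 1, and 1.33 for that replicate against HFD on their shared slide. The replicate with high Fgf21 is the only HFD+APS array on the HFD slide, so liver and slide cannot be told apart within this group.

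**Figure D2:**
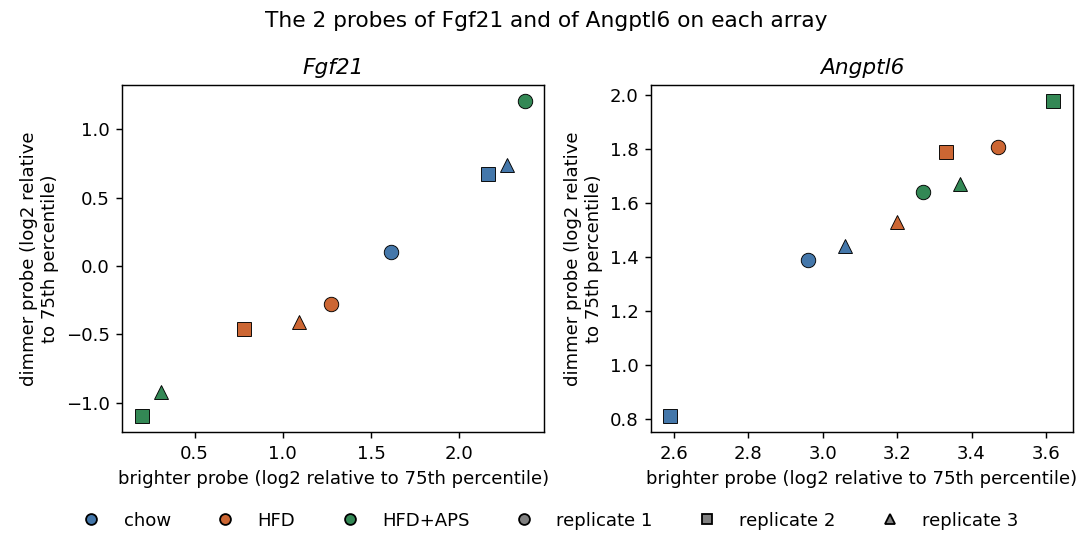
The 2 probes of Fgf21 (left) and of Angptl6 (right) on each of the 9 arrays, as relative log2 signal of the brighter probe (horizontal) against the dimmer probe (vertical); colours are diet groups and shapes are replicates. In both panels the arrays fall close to a line, with HFD+APS replicate 1 at the top for Fgf21 (2.37 and 1.21) and chow replicate 2 at the bottom for Angptl6 (2.59 and 0.81). Both probes of a gene read the same RNA sample and are not replicates.

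No FGF21 receptor gene was called. Klb, which encodes beta-Klotho, differed by -0.37 ± 0.18 in HFD against chow (adjusted p = 0.205) and by 0.58 ± 0.18 in HFD+APS against HFD (adjusted p = 0.157). Fgfr4, the main FGF receptor of hepatocytes, gave 0.02 ± 0.09 and 0.12 ± 0.09 in those comparisons (adjusted p = 0.909 and 0.537), and Fgfr1, well above background on 5 of 9 arrays, gave -0.44 ± 0.21 and 0.05 ± 0.21 (adjusted p = 0.197 and 0.930). Kl was not analysed here.

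Enho, the adropin gene, was highest in the HFD+APS livers. Its relative log2 signal was 3.85, 3.02 and 3.51 in chow, 2.64, 3.00 and 4.08 in HFD, and 4.75, 4.24 and 4.44 in HFD+APS. HFD spread most (SD 0.75) and overlapped chow, while all HFD+APS values lay above all others. HFD+APS minus HFD was 1.24 ± 0.37, a 2.36-fold higher signal (adjusted p = 0.145, 95% interval 0.39 to 2.09), and HFD+APS minus chow was 1.01 ± 0.37 (adjusted p = 0.142). HFD replicate 3 was the HFD liver nearest to HFD+APS, and without it the difference from HFD was 1.66 (adjusted p = 0.0519). On the shared slide, HFD+APS replicate 1 lay 1.51 above HFD. Gpr19, proposed as an adropin receptor, gave 0.25 ± 0.24 in HFD+APS against HFD (adjusted p = 0.619).

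Angptl4 fell under the high-fat diet. Its relative log2 signal was 7.64, 7.98 and 7.91 in chow, 7.3, 7 and 6.89 in HFD, and 7.45, 7.15 and 7.31 in HFD+APS. All chow livers lay above all livers of both high-fat groups, which overlapped each other. HFD minus chow was -0.78 ± 0.15 (adjusted p = 0.0216, rank 645), and the direction held in all 21 alternatives (-0.90 to -0.69). It was called in 17 of them, and was lost without chow replicate 2 (-0.71, adjusted p = 0.0749), chow replicate 3 (-0.74, 0.0666), HFD replicate 2 (-0.75, 0.0631) or HFD replicate 3 (-0.69, 0.0617), each of which leaves 8 arrays.

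HFD+APS minus chow was -0.54 ± 0.15 for Angptl4 (adjusted p = 0.082), and -0.64 with normexp, which called it (adjusted p = 0.0358). HFD+APS minus HFD was 0.24 ± 0.15 (adjusted p = 0.442, interval -0.11 to 0.58). Angptl8, another angiopoietin-like inhibitor of lipoprotein lipase, gave -0.08 ± 0.68 in HFD against chow (adjusted p = 0.948). Lpl itself gave 0.55 ± 0.23 (adjusted p = 0.152) and Gpihbp1, its anchor on capillaries, 0.37 ± 0.22 (adjusted p = 0.285). Of 11 measured genes of this family and system, Apoc2, the activator of lipoprotein lipase, was the only gene called: it rose by 0.83 ± 0.10 in HFD (adjusted p = 0.0052) and was -0.47 ± 0.10 in HFD+APS against HFD (adjusted p = 0.0586). The median of the 11 was -0.05 in HFD against chow, beside -0.04 over all features. Angptl1 and Angptl7 were not analysed here.

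Angptl6, an angiopoietin-like factor linked to energy use, was lowest in chow, and both high-fat groups overlapped. The brighter probe read 2.96, 2.59 and 3.06 in chow, 3.47, 3.33 and 3.20 in HFD, and 3.27, 3.62 and 3.37 in HFD+APS. All 6 high-fat livers lay above all chow livers, and the intron-spanning probe also put all high-fat livers above all chow livers, at 0.81 to 1.44 in chow and 1.53 to 1.98 in the high-fat livers. HFD minus chow was 0.46 ± 0.16 (adjusted p = 0.0907) and HFD+APS minus chow was 0.55 ± 0.16 (adjusted p = 0.0864), so neither was called. HFD+APS minus HFD was 0.08 ± 0.16 (adjusted p = 0.817, interval -0.27 to 0.44). On the shared slide it was -0.06.

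**Figure D3:**
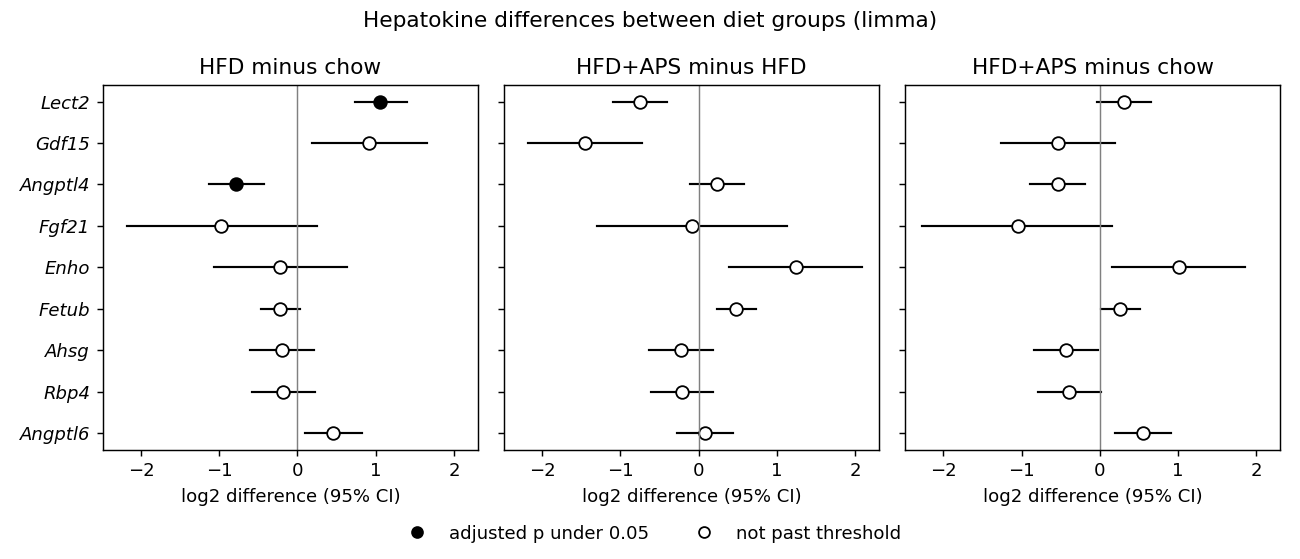
Log2 differences of the 9 hepatokines (points) with 95% confidence intervals (lines) from limma for HFD minus chow, HFD+APS minus HFD and HFD+APS minus chow, from 3 livers a group. Filled points have an adjusted p under 0.05: Lect2 (1.06) and Angptl4 (-0.78) in HFD minus chow. Fgf21 has the widest intervals in all 3 panels.

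Fetub and Ahsg encode the fetuins, cystatin-type plasma proteins of which fetuin-A (Ahsg) binds the insulin receptor and calcium phosphate and fetuin-B (Fetub) inhibits a protease of the egg. The genes are neighbours on chromosome 16, 18.9 kb apart in GRCm38 (Ahsg at chr16:22892015-22899451, Fetub at chr16:22918382-22939768). Fetub read 7.32, 7.49 and 7.25 in chow, 7.08, 7.04 and 7.28 in HFD, and 7.68, 7.58 and 7.59 in HFD+APS. HFD overlapped chow at its upper end, and every HFD+APS liver lay above every other liver, within an SD of 0.05. HFD+APS minus HFD was 0.48 ± 0.11, a 1.40-fold higher signal (adjusted p = 0.0773, 95% interval 0.23 to 0.73). Of 23 alternatives, 2 called it, normexp (0.46, adjusted p = 0.0478) and array weights (0.50, adjusted p = 0.0134). The value on the shared slide was 0.54. Against chow, HFD gave -0.22 ± 0.11 (adjusted p = 0.210) and HFD+APS gave 0.26 ± 0.11 (adjusted p = 0.191).

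Its neighbour Ahsg did not share that order. Ahsg read 9.69, 9.88 and 9.52 in chow, 9.56, 9.48 and 9.47 in HFD, and 9.67, 9.01 and 9.13 in HFD+APS. HFD+APS replicates 2 and 3 were the lowest and replicate 1 lay among the chow livers, so all groups overlapped. The difference of HFD from chow was -0.20 ± 0.18 (adjusted p = 0.484), HFD+APS minus HFD -0.23 ± 0.18 (adjusted p = 0.529) and HFD+APS minus chow -0.43 ± 0.18 (adjusted p = 0.182).

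Rbp4, the plasma carrier of retinol, was, like Ahsg, highest in replicate 1 of the HFD+APS group and lower in replicates 2 and 3. It read 9.73, 9.74 and 9.62 in chow, 9.75, 9.45 and 9.37 in HFD, and 9.68, 9.16 and 9.09 in HFD+APS. In HFD minus chow it was -0.18 ± 0.18 (adjusted p = 0.531), HFD+APS minus HFD -0.21 ± 0.18 (adjusted p = 0.563) and HFD+APS minus chow -0.39 ± 0.18 (adjusted p = 0.215).

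The Ahsg and Rbp4 probes were bright on every array, with mean pixel signals of 133500 to 222600, where the saturation value was 778928 to 778978. The slide that holds HFD+APS replicates 2 and 3 had a lower top, meaning a dimmer brightest spot. That spot had a mean pixel signal of 232400 and 241654 there, against 325758 to 362687 on the other 7 arrays, and no spot was saturated. The part of this lower top in the Ahsg and Rbp4 values was not tested. On the shared slide, HFD+APS replicate 1 lay 0.17 above HFD for Ahsg and 0.16 above for Rbp4, the opposite sign to the group difference. Without replicate 1, both were called lower than chow (Ahsg -0.63, adjusted p = 0.0303; Rbp4 -0.57, adjusted p = 0.0455), on arrays that share the slide with the lower top. The group difference from chow moved with the scaling by over 1.5 times. After quantile normalization, HFD+APS minus chow was -0.27 for Ahsg (adjusted p = 0.181) and -0.21 for Rbp4 (adjusted p = 0.394), beside -0.43 and -0.39 with the 75th percentile. In the authors' deposited table, it was -0.27 for Ahsg (adjusted p = 0.205) and -0.16 for Rbp4 (adjusted p = 0.462).

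The listed genes of retinoid transport and storage, and of cystatin-type and plasma proteins, were mostly not called. Ttr, the transthyretin gene, differed by 0.15 ± 0.19 in HFD against chow (adjusted p = 0.638) and by -0.61 ± 0.19 in HFD+APS against HFD (adjusted p = 0.161). Stra6l, a liver receptor of RBP4, gave 0.34 ± 0.13 (adjusted p = 0.122) in HFD against chow. Of 10 measured genes of retinoid transport and storage, Aldh1a1, which makes retinoic acid, was the only gene called, higher in HFD than in chow by 0.57 ± 0.15 (median of the list 0.14). Among 12 cystatin-type and plasma protein genes, Cstb (0.50 ± 0.12) and Afp (1.07 ± 0.23), encoding cystatin B and alpha-fetoprotein, rose in HFD, with a list median of 0.11, and 0 of 12 were called between HFD+APS and HFD. Hrg and Kng1, cystatin-type relatives of the fetuins, gave 0.21 ± 0.15 (adjusted p = 0.346) and -0.02 ± 0.21 (adjusted p = 0.956) in HFD against chow. Rbp2 and Rara were not analysed here.

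Against chow, the HFD+APS livers had 0 of 9 hepatokines called, beside 3.46% of all features (0.959% higher and 2.5% lower), and 5 members had an unadjusted limma p under 0.05 (Angptl4, Angptl6, Ahsg, Fetub and Enho; 25.2% of features did). The groups did not overlap for 5 of 9 members, 4 higher (Lect2, Angptl6, Fetub and Enho) and Angptl4 lower, against 30.9% of features (12.8% higher and 18.2% lower). These counts of members rest on the same 3 chow arrays as the HFD comparison.

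The regulators of Fgf21 and Gdf15 were examined as gene lists. Of 20 genes of the integrated stress response and p53 pathways, 0 were called in any of the 3 comparisons, and the list medians were 0.21 in HFD against chow and -0.32 in HFD+APS against HFD, beside -0.04 and 0.00 over all features. Atf4, the transcription factor of the integrated stress response, gave -0.36 ± 0.15 in HFD against chow (adjusted p = 0.15), Ddit3 gave -0.05 ± 0.32 (adjusted p = 0.930), Trib3 0.34 ± 0.28 (adjusted p = 0.453) and Trp53 -0.65 ± 0.20 (adjusted p = 0.0679). In HFD+APS against HFD, Ddit3 gave -0.60 ± 0.32 (adjusted p = 0.359) and Trib3 0.61 ± 0.28 (adjusted p = 0.307). The largest differences on the list, chosen after their values were seen, were in other genes. In HFD against chow, Chac1, which degrades glutathione, gave 2.33 ± 0.65 (adjusted p = 0.055) and Asns, asparagine synthetase, gave -2.17 ± 0.83 (adjusted p = 0.121). Atf3, a stress-induced transcription factor, gave 1.18 ± 0.45 in HFD against chow (adjusted p = 0.121) and -1.75 ± 0.45 in HFD+APS against HFD (adjusted p = 0.105).

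Of 17 genes of PPAR alpha and its targets, which include regulators of Fgf21 and Angptl4, 2 rose and 2 fell in HFD against chow. The fatty acid transporter Cd36 rose by 2.07 ± 0.19 (adjusted p = 0.00203) and the pantetheinase gene Vnn1 by 1.07 ± 0.19, while the peroxisomal enzyme Ehhadh fell by 1.52 and the thioesterase Acot1 fell by 1.18 on the log2 scale. Ppara itself gave -0.06 ± 0.20 (adjusted p = 0.856) and its coactivator Ppargc1a -0.42 ± 0.15 (adjusted p = 0.109). In HFD+APS against HFD, Cd36 fell by 1.74 ± 0.19 (adjusted p = 0.01), the only gene of the list that was called. The list medians were -0.14 and 0.14 in these 2 comparisons. Among nutrient and liver transcription factors and their targets, Txnip, a glucose-responsive gene, fell by 0.84 in HFD against chow (adjusted p = 0.0417), and 0 of 14 genes were called in HFD+APS against HFD.

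**Figure D4:**
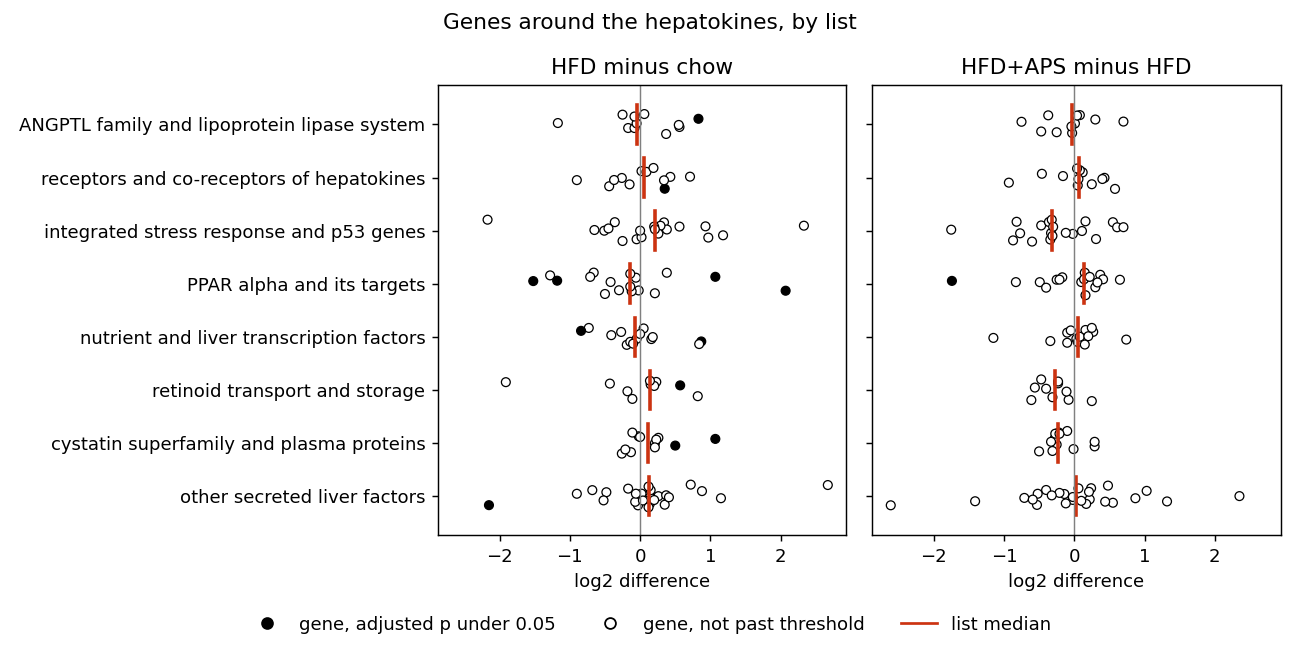
Log2 differences of the genes around the hepatokines in HFD minus chow (left) and HFD+APS minus HFD (right), from 8 gene lists; each circle is a gene, filled where its adjusted p is under 0.05, and the vertical bar is the list median. Most genes in each list are open circles on both sides, and Cd36 (-1.74) is the only filled circle on the right.

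Receptors and other liver-secreted factors showed few calls. Of 12 measured receptor and co-receptor genes, Met was the only gene called, and the list median was 0.06 in HFD against chow and 0.07 in HFD+APS against HFD. The insulin receptor gene Insr gave -0.15 ± 0.16 (adjusted p = 0.569) and 0.40 ± 0.16 (adjusted p = 0.255), and Tlr4 gave 0.09 ± 0.20 (adjusted p = 0.786) and -0.16 ± 0.20 (adjusted p = 0.711). Of 26 other measured secreted factors, Igfbp2, an IGF-binding protein, was the only gene called: it fell by 2.15 in HFD against chow (adjusted p = 0.0452) and was 2.35 ± 0.55 higher in HFD+APS than in HFD (adjusted p = 0.0804). Igf1 gave -0.17 ± 0.09 and 0.24 ± 0.09 in these comparisons (adjusted p = 0.235 and 0.221), Igfbp1 gave -0.90 ± 1.09 and 1.32 ± 1.09 (adjusted p = 0.609 and 0.556), and Inhbe, an activin subunit, gave 0.37 ± 0.16 and -0.53 ± 0.16 (adjusted p = 0.161 and 0.152). Tsku, the tsukushi gene, gave 0.26 ± 0.49 and -1.41 ± 0.49 (adjusted p = 0.760 and 0.194), and Fgl1, the hepassocin gene, gave 1.15 ± 0.79 and -0.52 ± 0.79 (adjusted p = 0.356 and 0.769). Gpnmb, Shbg and Ism1 were not analysed here.

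The features whose pattern over the 9 arrays was most like that of each member were found among 13470 named features. For Lect2 they were Adgrv1 (Pearson r 0.985), Gtf2h5 (0.981) and Sh3bgrl (0.975), and for Gdf15 Grip1os2 (0.975), Rnaseh2b (0.969) and Slc35f5 (0.943). For Angptl4 they were Gorasp2 (0.994), Lgals4 (0.990) and Lrrc47 (0.984), and for Angptl6 Ints10 (0.978), Yif1a (0.970) and Osgepl1 (0.965). Fgf21 was most like Ccdc142 (0.979), Mapre3 (0.965) and Cpt1b (0.958), the last of which encodes a carnitine palmitoyltransferase. Ahsg was most like Serpinc1 (0.989), the antithrombin gene, COX2 (0.983) and Serpina1d (0.979), and Rbp4 most like Eif5a2 (0.992), Sall4 (0.983) and Phf24 (0.976). Fetub was most like Saraf (0.955), Med15 (0.953) and Ifnar2 (0.947), and Enho most like Epha7 (0.932), Med23 (0.922) and Bok (0.920). These correlations are over 9 arrays that share slides and diet groups, and are the highest of a long list, so they describe these arrays only.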

How the data were processed

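Total RNA of 9 livers was labelled with Cy3 and hybridised to Agilent arrays by the authors, who scanned them with Feature Extraction (version 10.7 by the submitters' processing notes, and 10.7.1.1 by the scanner files). The deposited processed signal of each spot is an intensity from which background was subtracted, per the file headers, with no step between arrays. The deposited series table holds log2 values of the authors (its normalisation is not given in the sources used here) and served as an alternative.

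An array carries 45018 spots. The 1639 control spots and any with outlier flags were left out, spots of a probe were averaged on the log2 scale, and the array's 75th percentile (a signal of 209.7 to 264.7) was subtracted. Probes well above background on at least 3 of 9 arrays were kept, with the brightest probe for each gene, and compared in limma 3.58.1 (R 4.3.3; lmFit and eBayes, 1 fit of all arrays, Benjamini-Hochberg adjustment, threshold 0.05). With 3 arrays a group, an exact two-sided permutation test cannot go below 0.1. The limma fit, but not the steps before it, was tested on simulated arrays without slide effects, so that test does not bear on slide. Gene names were updated through RefSeq (GRCm38), which matched all but 7422 of 41174 probes.

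The members, gene lists and tests were chosen with earlier results of these data known. Named genes are the members, a list of related genes, up to 4 called genes a list with the smallest p, and the 3 features most like each member; the cell type markers were named where called. Results of some genes under this rule are not reported here. Replicate numbers are shared between groups but nothing in the labels pairs the livers. Array number limits the precision. Alternatives were background correction, scaling, filters, probe choice, flagged spots, slide and replicate blocks, array weights, the groups fitted, and leaving out each array.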

Additional observations from a re-analysis of the deposited data

How the results depend on the processing

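Lect2 in HFD against chow was called under all 21 alternatives. In HFD+APS against HFD, the count of hepatokines called was 3 with normexp, 1 with quantile normalisation, 1 with the authors' deposited log2 table, 1 when probes had to be above background everywhere and 4 with array weights, against 0. In HFD+APS against chow it was 1 with normexp and 8 with array weights, against 0. Leaving out an array gave 1 to 3 hepatokines called in HFD against chow, 0 to 0 in HFD+APS against HFD and 0 to 3 in HFD+APS against chow. The array weights ran from 0.35 (HFD+APS replicate 1) to 4.25 (HFD+APS replicate 3).

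Reversed values all belong to differences that were not called. In HFD+APS against HFD, Fgf21 was 0.01 as the mean of its probes, 0.12 with slide as a random block, 1.33 with slide as a fixed block, 1.33 on the shared slide, and -0.79 to 0.29 on leaving out an array (0.03 without HFD replicate 1, 0.29 and 0.24 without HFD+APS replicates 2 and 3). Angptl6 was -0.06, Ahsg 0.17 and Rbp4 0.16 both with the fixed slide block and on the shared slide. These 2 settings give the same difference by construction, because both set HFD+APS replicate 1 alone against HFD. They are therefore not separate checks. Angptl6 ran from -0.01 to 0.16 on leaving out an array. Enho in HFD against chow ran from -0.65 to 0.08, the last without HFD replicate 1. The cause was not tested.

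The features called, in the order HFD versus chow, HFD+APS versus HFD, HFD+APS versus chow (1928, 265 and 610), became 798, 79 and 224 with no filter on dim probes (27339 features tested), 684, 164 and 158 with slide as a random block, and 3831, 2049 and 4933 with array weights. Fits of only the groups compared gave 25 and 343 in the comparisons with HFD+APS. The shared slide alone, with 1 HFD+APS array assumed to vary like the HFD arrays, gave 0 called in limma and 1907 at an unadjusted p under 0.05. Leaving out an array gave 365 to 2710, 51 to 579 and 21 to 1605.

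Deviations from the group means correlated between same-numbered arrays at -0.18 to 0.16, and between others at -0.19 to 0.22. These ranges gave no sign that the replicate numbers pair the livers. With so few arrays in each group mean, the correlations cannot exclude such pairing. With the replicate block, 1322, 82 and 295 features were called, and no hepatokine's call changed. Diet and slide cannot be told apart in the comparisons with chow.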
